A study of Rattus norvegicus with 24 samples.

Results

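The creatine kinases Ckm, Ckb and Ckmt2, the adenylate kinase Ak4 and the AMP deaminase Ampd1 were followed in 2 rat muscles at 3 ages. These 5 genes were taken by name: a probe set, meaning several short probes read together as 1 value, was included when the array annotation gave it one of these symbols and no other. They were represented by 8 of 8740 probe sets and made up 5 of the 4736 named genes. Ckm (M10140_at) and Ak4 (rc_AA891949_at) had 1 probe set each, and Ckb, Ckmt2 and Ampd1 had 2 each. All 8 passed the filter on low values, Ak4 through its signal in 1 of the muscles only.

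The muscles were the extraocular muscles (EOM), which turn the eyeball, and the extensor digitorum longus (EDL), a fast muscle of the hindlimb. Each was profiled on Affymetrix Rat Genome U34 arrays at 6, 18 and 30 months of age, which gave 6 groups of 4 arrays and 24 arrays in all. The series asks how gene expression in EOM shifts with age, with EDL beside it as a limb muscle. Every array carried RNA combined from 4 animals, and the submitters describe the 4 pools of a group as independent, so the errors describe the spread between pools. The labels name muscle, age and replicate only. Strain, sex, and whether an EOM and an EDL pool came from the same rats are not given in the sources used here.

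Creatine kinases pass phosphate between ATP and phosphocreatine, the reserve from which working muscle rebuilds ATP. Ckm encodes the muscle form and Ckb the brain form of the cytosolic enzyme, which form dimers with themselves or each other, and Ckmt2 encodes the form of striated muscle mitochondria. Adenylate kinases interconvert ATP, ADP and AMP, and Ak4 is a member of that family located in the mitochondrial matrix. Ampd1, the muscle AMP deaminase, turns AMP into IMP and so removes the AMP that builds up in hard work. It is known as an enzyme of fast skeletal fibres.

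The sequence before the annotated start is shown for the 4 genes with the wider differences between the muscles, so that those moving in opposite directions can be set side by side: Ckm and Ampd1, which were lower in EOM, and Ckb and Ak4, which were higher. Each is the 250 bases before the start in RefSeq, build GRCr8, written 5′ to 3′ on the gene's strand. Capitals mark matches, on either strand, to 5 motifs. These are the E-box CANNTG, the TATA box TATAAA, its variant with the letters TATATA, the GC box GGGCGG, and the longest run of bases shared by the Ckb and Ampd1 sequences, GCTATAAATAG. The shared run was taken from these sequences themselves, after they had been seen, and it contains the TATA box.
Ckm: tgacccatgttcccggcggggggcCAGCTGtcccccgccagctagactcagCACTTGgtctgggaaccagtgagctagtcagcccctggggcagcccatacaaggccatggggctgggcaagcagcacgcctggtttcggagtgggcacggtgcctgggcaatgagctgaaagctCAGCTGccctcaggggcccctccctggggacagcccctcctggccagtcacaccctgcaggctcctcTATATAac
Ckb: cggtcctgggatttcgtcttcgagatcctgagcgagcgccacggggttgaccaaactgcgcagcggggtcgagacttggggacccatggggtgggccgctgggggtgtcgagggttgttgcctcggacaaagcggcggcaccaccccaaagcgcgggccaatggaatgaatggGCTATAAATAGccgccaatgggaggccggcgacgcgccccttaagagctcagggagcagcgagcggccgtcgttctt
Ak4: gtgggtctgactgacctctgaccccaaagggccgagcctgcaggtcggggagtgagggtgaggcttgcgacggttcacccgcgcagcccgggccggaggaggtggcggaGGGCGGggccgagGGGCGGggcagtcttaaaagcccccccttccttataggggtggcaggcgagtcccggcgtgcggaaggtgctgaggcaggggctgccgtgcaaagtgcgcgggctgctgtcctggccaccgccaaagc
Ampd1: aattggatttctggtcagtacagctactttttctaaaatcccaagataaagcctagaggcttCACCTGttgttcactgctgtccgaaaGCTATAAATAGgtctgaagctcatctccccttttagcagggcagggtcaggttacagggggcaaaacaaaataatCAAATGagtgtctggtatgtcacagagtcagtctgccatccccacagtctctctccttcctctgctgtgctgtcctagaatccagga
The positions are chr1:88189211-88189460 on the plus strand for Ckm, chr6:136553465-136553714 on the minus strand for Ckb, chr5:121154886-121155135 on the plus strand for Ak4 and chr2:193287082-193287331 on the plus strand for Ampd1.

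All 5 genes had an entry in the promoter table. Ckb, higher in EOM, and Ampd1, lower in EOM, both hold the shared run, which begins 77 and 162 bases before their starts. The run occurs in 16 of 33469 rat promoters of this length (0.0478%), Ckb and Ampd1 among them. It was picked because these 2 sequences share it, so its presence in both was fixed in advance. Its rarity is therefore not read as a result. The Ckm sequence has 3 matches to CANNTG and a TATATA 8 bases before the start used by the table. The Ampd1 sequence has 2 matches to CANNTG, and those of Ckb and Ak4 have none. The E-box letters are found in 65.5% of all promoters, TATATA in 5.45% and the TATA box in 12.9%. Ak4 holds GGGCGG at 2 places, a motif of 30.5% of promoters, and none of the other letters searched. CG steps number 25 in Ckb, 20 in Ak4, 6 in Ckm and 1 in Ampd1, and the median of all promoters is 5. The Ckmt2 sequence, not printed, has 4 CG steps, 2 matches to CANNTG and 1 GC box. It holds the E-box letters as Ckm and Ampd1 do, and the GC box as Ak4 does. The GC content is 64.8% in Ckb, 70.8% in Ak4, 65.6% in Ckm and 46.0% in Ampd1, beside a median of 51.2%. These matches describe the letters only.

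The median intensity of an array lay between 89.7 and 136.8 arbitrary units and its brightest probe set between 20943 and 63872. Precision is limited by the number of arrays. Beta-actin signal at the 3′ end over that at the 5′ end, a ratio that is higher where RNA is degraded, ran from 1.13 to 3.54 and was highest in EDL at 6 months. Markers of extraocular muscle (Myh13, Myh8, Myh3 and Actc1) summed to 56649 to 90744 units per EOM array and to 1421 to 6464 per EDL array, and all 4 were higher in EOM at each age. Fast muscle markers, 6 of the 7 listed, were bright in both muscles, at 118704 to 222029 units in EDL and 93568 to 149362 in EOM. All 6 were lower in EOM in the mean over ages.

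EOM differed from EDL in 4 of the 5 genes by clear or moderate amounts. Ak4 was at least 21.7-fold higher in EOM, Ckb was 1.56 and 2.29 times higher by its 2 probe sets, Ampd1 was 2.47 times lower by both, and Ckm was 1.34 times lower. Ckmt2 was close to equal up to 18 months and stood higher in EOM at 30 months. In the mean over the 3 ages 7 of the 8 probe sets passed at an adjusted p under 0.05, 4 of them higher and 3 lower in EOM. Ak4 counts among them with its EDL side at the floor of each array. Over all 5741 probe sets tested 42.3% passed in this comparison, 22.3% higher and 20% lower, so a pass by itself is common here. After quantile normalisation the split was 5 higher and 2 lower. Differences are on the log2 scale, EOM minus EDL, with their standard error (SE) and a limma p adjusted over all probe sets tested. The median difference of all probe sets was -0.06, and it was -0.11 when each array was centred on its median.

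**Figure D1:**
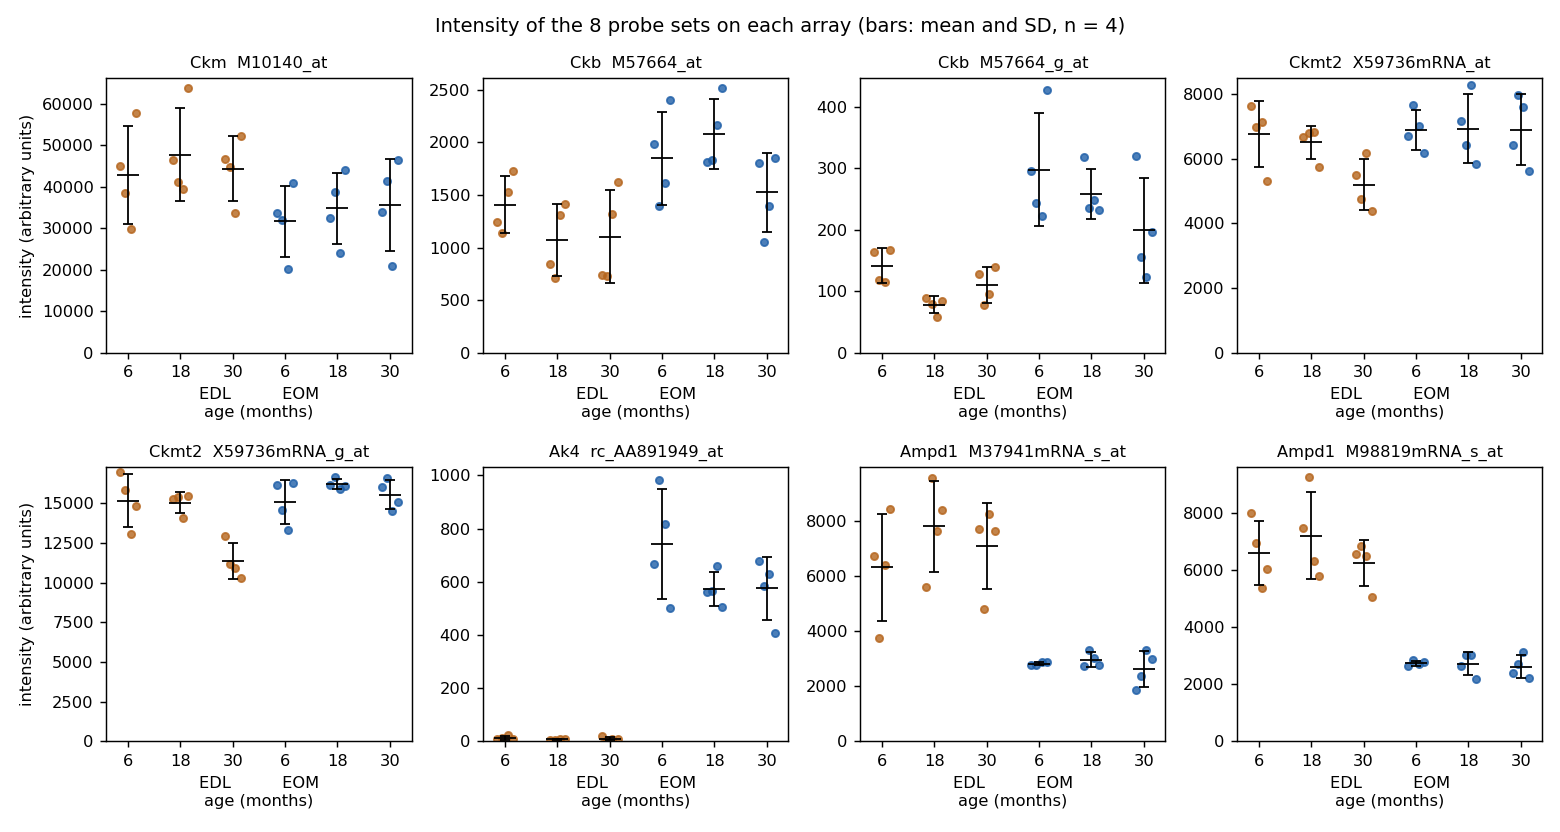
Intensity in arbitrary units (vertical axes, linear and starting at 0) of the 8 probe sets on each of the 24 arrays, by age in months, with EDL in brown and EOM in blue; bars give the mean and SD of 4 arrays. Ak4 lies near 0 on every EDL array and between 407 and 982 in EOM, and both Ampd1 probe sets are lower in EOM with no overlap at any age.

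Ckm, the muscle creatine kinase, was lower in EOM than in EDL in the mean over ages. In EDL the 4 arrays of replicates 1 to 4 read 45070.1, 38430.4, 29724 and 57683 at 6 months, 46477, 41174, 39322 and 63872 at 18 months and 46594, 44804, 33655 and 52264 at 30 months. In EOM they read 33627, 31883, 20059.6 and 40845 at 6 months, 32356, 38614, 23936 and 44026 at 18 months and 33797, 41293, 20905 and 46495 at 30 months. The EOM arrays lay lower as a group, but the muscles overlapped at every age, because replicate 4 was the highest and replicate 3 the lowest array in all 6 groups. Relative to its group's mean, replicate 3 stood at 0.587 to 0.824 and replicate 4 at 1.18 to 1.35. The sources used here do not give what the replicate numbers stand for.

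The Ckm means were 42727 ± 11786, 47711 ± 11192 and 44329 ± 7794 (SD, n = 4) in EDL at 6, 18 and 30 months and 31604 ± 8619, 34733 ± 8634 and 35623 ± 11110.2 in EOM. All 3 EDL means were above all 3 EOM means, and neighbours in that order differed by less than their SDs. The mean difference over ages was -0.42 (SE 0.15, adjusted p = 0.0257). At single ages it was -0.44, -0.47 and -0.36 (SE 0.26 each), and none passed (adjusted p = 0.278, 0.21 and 0.382). The call was lost after quantile normalisation (log2 -0.06, adjusted p = 0.292), which gives the highest values of all arrays 1 common scale, and in replicates 3 and 4 alone (-0.53, adjusted p = 0.221). It was also lost without replicate 4 of EDL at 6 or 18 months or replicate 3 of EOM at 6, 18 or 30 months, with adjusted p from 0.0504 to 0.0527.

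**Figure D2:**
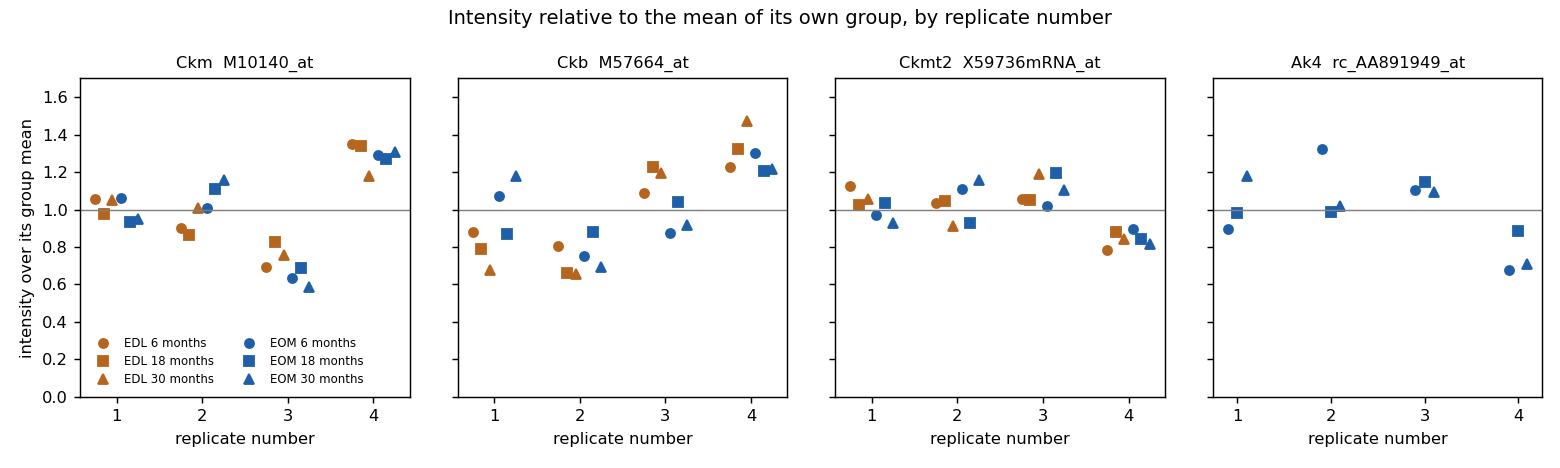
Intensity of Ckm, Ckb (M57664_at), Ckmt2 (X59736mRNA_at) and Ak4 on each array divided by the mean of its own group (vertical axes, linear), against replicate number, with EDL in brown, EOM in blue and a symbol for each age; Ak4 is drawn for EOM only. Replicate 4 is the highest of its group for Ckm and Ckb and the lowest for Ckmt2 in all 6 groups.

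Ckb, the brain creatine kinase, ran the other way and was higher in EOM. Both probe sets carry the name of 1 source sequence, so they are not independent measurements. The first (M57664_at) read 1239, 1136, 1530 and 1725 at 6 months, 846, 708, 1314 and 1415 at 18 months and 743, 725, 1315 and 1623 at 30 months in EDL. In EOM it read 1983, 1393, 1615 and 2405 at 6 months, 1812, 1838, 2167 and 2517 at 18 months and 1800.1, 1054, 1399 and 1853 at 30 months. The muscles were separate at 18 months, where the lowest EOM array was above the highest EDL array, and overlapped at 6 and 30 months. The means were 1407 ± 269, 1071 ± 346 and 1101 ± 443 (SD, n = 4) in EDL and 1849 ± 443, 2083 ± 331 and 1527 ± 374 in EOM.

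The second Ckb probe set (M57664_g_at) read 164, 118, 116 and 167 at 6 months, 89.6, 79, 58.2 and 83.9 at 18 months and 128, 77, 95.6 and 139.9 at 30 months in EDL. In EOM it read 296, 244, 223 and 428 at 6 months, 319, 236, 248 and 232 at 18 months and 319.7, 156, 122 and 197 at 30 months. Here the muscles were separate at 6 and 18 months and overlapped at 30 months, where EOM replicate 3, at 123, lay below EDL replicates 1 and 4. The 3 EOM means, 298 ± 92.1, 259 ± 40.6 and 199 ± 86.1 (SD, n = 4), were above the 3 EDL means of 141 ± 28.3, 77.7 ± 13.7 and 110.2 ± 29.

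Over the 3 ages the Ckb difference was 0.64 (SE 0.15, adjusted p = 0.00163) by the first probe set and 1.20 (SE 0.17, adjusted p = 2.49e-06) by the second. At 6 months only the second passed, at 1.05 (SE 0.29, adjusted p = 0.0118), with the first at 0.38 (SE 0.27, adjusted p = 0.375). At 18 months both passed, at 1.01 (SE 0.27, adjusted p = 0.007) and 1.74 (SE 0.29, adjusted p = 7.83e-05). At 30 months neither passed, at 0.52 (adjusted p = 0.188) and 0.80 (adjusted p = 0.054). That the 18-month difference exceeds the 6-month one was tested directly and did not pass for either probe set, at 0.62 (SE 0.38) and 0.69 (SE 0.41), adjusted p = 0.998 for both. The 6-month call was lost without EOM replicate 4 (0.86, adjusted p = 0.0582). The second probe set passed at 30 months without EOM replicate 3 of that age (1.00, adjusted p = 0.0226), without EDL replicate 4 of that age (0.93, adjusted p = 0.0417) or without EOM replicate 4 of 6 months (0.80, adjusted p = 0.0497).

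Ckb is also made by nerve, smooth muscle and other cells, and in whole muscle a change in the number of such cells and a change of RNA within a cell cannot be told apart, which holds for all genes here. Nerve and Schwann cell markers, 7 of 9 on the array, summed to 1299 to 2337 units in EDL and 5029 to 7400 in EOM, and 5 of the 6 tested were higher in EOM at each age. Among these markers Nefm lay at the floor on all EDL arrays of 18 months. Smooth muscle markers, 5 of 5, summed to 1836 to 4058 units in EDL and 4614 to 10170 in EOM, and all 5 were higher over the ages. Red cell markers, 2 of the 3 listed, summed to 2338 to 4589 in EDL and 7506 to 23531 in EOM. The part of these cells in the Ckb difference was not tested. Within an array, Ckb relative to Ckm, as a log2 ratio set to 0 at the EDL mean of 6 months, averaged 0.82, 0.87 and 0.38 in EOM at 6, 18 and 30 months (SD 0.36, 0.40 and 0.60). In EDL it averaged -0.61 and -0.50 at 18 and 30 months (SD 0.43 and 0.66). The EOM means were all above the EDL means, single arrays overlapped, and no test was run on this ratio.

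Ckmt2, the mitochondrial creatine kinase of striated muscle, differed little between the muscles except at 30 months. After quantile normalisation its first probe set also passed as higher in EOM at 6 months (0.28, adjusted p = 0.0442) and 18 months (0.29, adjusted p = 0.0292). The first probe set (X59736mRNA_g_at) read 16946, 15848, 13083 and 14842 at 6 months, 15259.5, 15388, 14053 and 15487 at 18 months and 12973, 11208, 10934 and 10286 at 30 months in EDL. In EOM it read 16152, 14607, 13294 and 16257 at 6 months, 16182, 16669.9, 15916 and 16101 at 18 months and 16024, 16587, 14513 and 15087 at 30 months. The 4 EDL arrays of 30 months were the lowest 4 of all 24 and did not overlap with any other group. The means were 15180.1 ± 1641, 15047 ± 669 and 11350.2 ± 1149 (SD, n = 4) in EDL and 15077 ± 1408, 16217 ± 322 and 15553 ± 929 in EOM, so the other 5 groups lay within 15047 to 16217.

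The other Ckmt2 probe set (X59736mRNA_at), named for the same source sequence, had means of 6772 ± 1014, 6508 ± 517 and 5199 ± 794 (SD, n = 4) in EDL and 6896 ± 616, 6933 ± 1057 and 6906 ± 1089.5 in EOM. Its EDL arrays of 30 months, at 5483, 4754, 6174 and 4386, overlapped with those of EOM at the same age, at 6412, 7978, 7618 and 5617. Replicate 4 was the lowest array in all 6 groups, at 0.784 to 0.898 of the group mean.

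At 30 months EOM exceeded EDL by 0.46 (SE 0.12, adjusted p = 0.00632) with the first Ckmt2 probe set and by 0.41 (SE 0.15, adjusted p = 0.0626) with the other. At 6 months the differences were -0.0081 and 0.04, and at 18 months 0.11 and 0.08 (adjusted p from 0.565 to 0.976). Over the ages the first probe set passed at 0.19 (SE 0.07, adjusted p = 0.0284) and the other, at 0.18 (SE 0.09, adjusted p = 0.115), did not. With arrays centred on their medians both calls of the first probe set were lost, at 0.48 (adjusted p = 0.136) at 30 months and 0.14 (adjusted p = 0.377) over the ages, as they were in replicates 1 and 2 alone (adjusted p = 0.0954 and 0.235) and 3 and 4 alone (0.205 and 0.182). The call over the ages was also lost with no filter (0.19, adjusted p = 0.0682), with no intensity trend (0.19, adjusted p = 0.0595), without EDL replicate 4 of 30 months (0.17, adjusted p = 0.0533) and without EOM replicate 1 of 6 months (0.17, adjusted p = 0.052).

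Ak4, the mitochondrial adenylate kinase, gave the widest separation of the 5 genes. In EOM it read 666, 982, 818 and 500.4 at 6 months, 563, 564, 658 and 506 at 18 months and 678, 586, 629.8 and 407 at 30 months. In EDL it read from 5.1 to 22.5 units over the 12 arrays, each at or below the floor of its array, which was set at the array's 25th percentile and lay between 21.4 and 34.5. The order of the EDL values therefore carries no information. The EOM means were 742 ± 206, 573 ± 63.2 and 575 ± 118 (SD, n = 4), and these 3 groups overlapped with each other.

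Measured against the floor, Ak4 was at least 21.7-fold higher in EOM over the ages (log2 4.44, SE 0.14, adjusted p = 1.08e-17 with limma). On the EDL side the fit used the floor of each array in place of Ak4's own value. The SE and p therefore do not describe the spread of Ak4 in EDL. The bound was at least 27.1-fold at 6 months, 19.6-fold at 18 months and 19.3-fold at 30 months. The gene passed in all 34 alternative settings with an adjusted p run for the mean over ages. Ak4 entered the tests through its EOM signal only, so these passes are not read as added support. Between ages in EDL both sides of the comparison lay at the floor, so its fitted values there say nothing of Ak4 and are not read. Gland and retina markers, 7 of the 8 listed, summed to 276 to 741 units in EDL at 6 and 18 months and 2604 to 7274 at 30 months, and to 3439 to 34118 over the EOM arrays. Of the 6 tested 4 were higher in EOM over the ages. At 30 months these sums overlapped between the muscles, and 1 of the 6 tested was higher and 1 lower in EOM. Fat cell markers, 6 of the 7 listed, summed to 2682 to 4885 units in EDL and 4383 to 6127 in EOM, with 3 of 6 higher over the ages. Their part in the Ak4 difference, and that of the nerve, smooth muscle and red cell markers given above, was not tested.

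Ampd1, the AMP deaminase of skeletal muscle, was lower in EOM at every age, with no overlap between the muscles in either probe set. One probe set (M37941mRNA_s_at) read 6746, 3739, 6398 and 8437 at 6 months, 5617, 9577, 7653 and 8405 at 18 months and 7706, 4809.9, 8253 and 7633 at 30 months in EDL. In EOM it read 2776, 2769, 2883 and 2872 at 6 months, 2754, 3316, 3042 and 2778 at 18 months and 1853, 2359.9, 3308 and 2975 at 30 months. The EDL arrays spread widely, from 3739 to 9577, and the EOM arrays of 6 months lay within 2769 and 2883. The group means were 6329.8 ± 1943, 7813 ± 1664 and 7101 ± 1552 (SD, n = 4) in EDL and 2825 ± 60.7, 2972 ± 263 and 2624 ± 647 in EOM.

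The other Ampd1 probe set (M98819mRNA_s_at), named for a different source sequence, read 8013, 6952, 5391 and 6058 at 6 months, 7466, 9260.1, 6311 and 5802 at 18 months and 6553, 6845, 6503 and 5062 at 30 months in EDL. In EOM it read 2636, 2841, 2703 and 2769 at 6 months, 2625, 3039, 3017 and 2195 at 18 months and 2401, 2726, 3131 and 2223 at 30 months. The lowest EDL array, at 5062, was above the highest EOM array, at 3131. Group means were 6604 ± 1137, 7209.7 ± 1534 and 6240.5 ± 800 (SD, n = 4) in EDL and 2737 ± 87.9, 2719 ± 398 and 2620.2 ± 399 in EOM. Within a muscle, ages next to each other in level differed by less than the larger of their SDs in both probe sets, and all EDL means were above all EOM means.

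The Ampd1 difference over the ages was -1.31 (SE 0.13, adjusted p = 9.56e-09) by the first probe set and -1.30 (SE 0.09, adjusted p = 5.61e-11) by the second. At 6, 18 and 30 months it was -1.10, -1.37 and -1.44 (SE 0.22 each) by the first and -1.26, -1.40 and -1.25 (SE 0.16 each) by the second, and all 6 passed, with adjusted p no higher than 0.000755. The first probe set did not pass at 6 months in replicates 1 and 2 alone (-0.86, adjusted p = 0.112). The fast muscle markers, like Ampd1 and Ckm, were lower in EOM over the ages, as given above. At 6, 18 and 30 months 3, 1 and 2 of the 6 passed as lower. Of 3 slow muscle markers tested, 1 was lower and 0 higher in EOM over the ages, and 2, 1 and 0 were lower at the single ages. The part of either set of markers in the Ampd1 and Ckm differences was not tested.

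By age, 4 of the 8 probe sets passed at 6 months, 5 at 18 months and 4 at 30 months, where 17.9%, 23.4% and 19.2% of all probe sets passed. The arrays of the muscles did not overlap for 4, 6 and 4 of the 8, where 20.1%, 26.3% and 22.2% of all probe sets did not overlap. Ak4, with EDL at the floor, and both Ampd1 probe sets passed at all 3 ages, and Ckm at none.

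**Figure D3:**
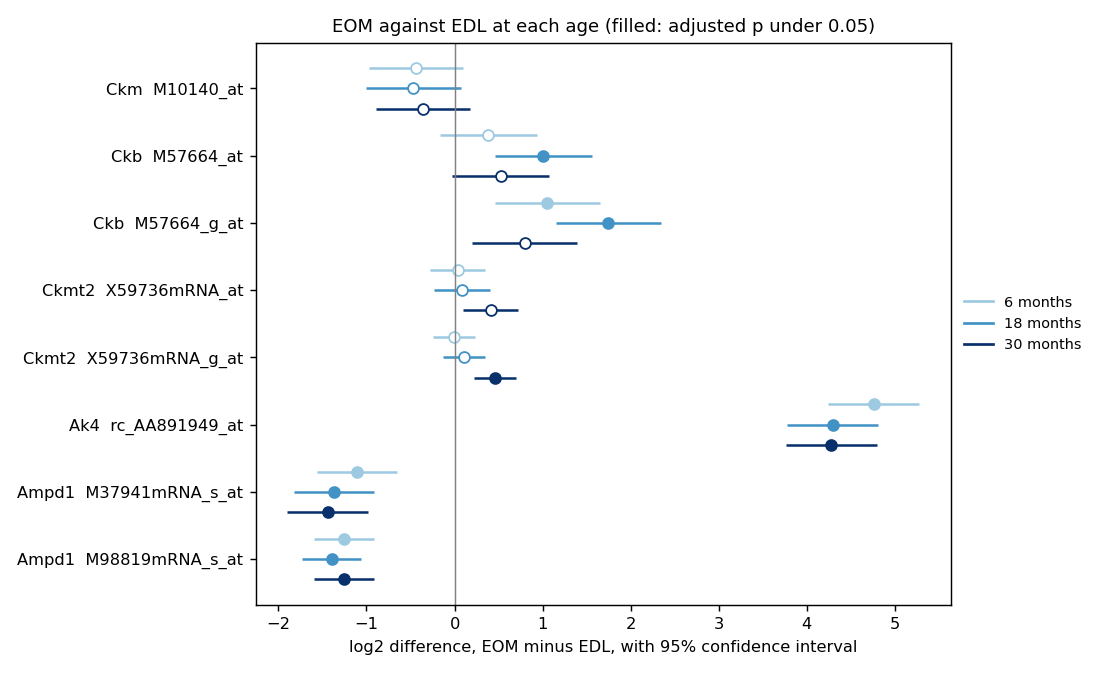
The log2 difference between the muscles, EOM minus EDL (horizontal axis), of each probe set at 6, 18 and 30 months from light to dark blue, with its 95% confidence interval; filled points passed at an adjusted p under 0.05. Ak4, whose values are lower bounds, lies beyond 4 at each age, and both Ampd1 probe sets lie between -1.44 and -1.10.

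None of the 8 probe sets passed in any of the 6 comparisons between ages with limma, and for Ak4 in EDL, at the floor throughout, this carries no information. In EDL, 30 against 6 months, 2 had an unadjusted p under 0.05 and 1.86% of all probe sets passed the adjusted threshold. In EDL, 18 against 6 months, these were 1 and 0.279%, and 30 against 18 months 2 and 1.55%. In EOM they were 1 and 0.0348% for 30 against 6 months, 0 and 0.174% for 18 against 6 months, and 0 and 0.0174% for 30 against 18 months. Few probe sets of any kind passed between ages, so a count of 0 of 8 is close to the background.

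Ckmt2 in EDL came nearest to the threshold. From 6 to 30 months its first probe set differed by -0.42 (SE 0.12, 95% confidence interval -0.66 to -0.18, adjusted p = 0.0689), with no overlap between the 4 old arrays, at most 12973, and the 4 young ones, at least 13083. Between 18 and 30 months it differed by -0.41 (SE 0.12, adjusted p = 0.089), again with no overlap. In EDL 1 of 8 probe sets did not overlap in each of these comparisons, where 3.99% and 4.67% of all probe sets did not. The other Ckmt2 probe set gave -0.38 (SE 0.15, adjusted p = 0.308) and -0.33 (SE 0.15, adjusted p = 0.501). In EOM the first probe set differed by 0.05 from 6 to 30 months (interval -0.19 to 0.29). The difference between the muscles in this change was 0.47 (SE 0.16, adjusted p = 0.632), and it did not pass.

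The change of Ckmt2 in EDL passed without EDL replicate 3 of 6 months (-0.49, adjusted p = 0.0264) and with arrays weighted by quality (-0.49, adjusted p = 0.0472). On that replicate 3 array the brightest probe set was one of Myh7, a slow muscle marker, at 30415 units. On the other arrays of its group it was Ckm. When each array was centred on its median, the median of all probe sets in EDL, 30 against 6 months, went from 0.03 to -0.11 and Ckmt2 to -0.56 (adjusted p = 0.295). Slow muscle markers (Myh7, Tnni1 and Myl3, 3 of the 4 listed) summed to 14792 to 66904 units in EDL at 6 months, 8795 to 33026 at 18 and 12916 to 20942 at 30 months, and 0 of the 3 passed between these ages. Gland and retina markers summed to 276 to 741 units in EDL at 6 months and 2604 to 7274 at 30 months, where 2 of the 6 tested rose. Neither was tested for its part in the Ckmt2 values.

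The other genes held wider intervals with age. Ckb by its second probe set differed by -0.86 in EDL from 6 to 18 months (interval -1.46 to -0.26, adjusted p = 0.334), without overlap between the 4 arrays of 18 months, at most 89.6, and those of 6 months, at least 116. In that comparison 2.6% of all probe sets did not overlap. The first Ckb probe set gave -0.43 there (interval -0.99 to 0.12, adjusted p = 0.797). In EOM from 6 to 30 months the second probe set differed by -0.63 (interval -1.23 to -0.03, adjusted p = 1.00), with overlapping arrays. Ckm differed by 0.08 from 6 to 30 months in EDL (interval -0.46 to 0.61) and by 0.16 in EOM (interval -0.38 to 0.69). Ampd1 by its second probe set differed by -0.08 in EDL (interval -0.41 to 0.26) and by -0.07 in EOM (interval -0.41 to 0.27). Ak4 in EOM differed by -0.35 (interval -0.86 to 0.17). In EOM the arrays of different ages overlapped for all 8 probe sets in each comparison, where 2.39% (30 against 6 months), 4.04% (18 against 6 months) and 1.69% (30 against 18 months) of all probe sets did not overlap. Intervals of this width do not show that these genes stay level with age.

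The change from 6 to 30 months was also compared between the muscles for the 7 probe sets other than that of Ak4, which lay at the floor in EDL, and 0 of 7 passed with limma. In that comparison 1 of the 7, the first Ckmt2 probe set, had an unadjusted p under 0.05, and 0.192% of all probe sets passed. For the change from 6 to 18 months 0 of 7 passed, 0 of 7 had an unadjusted p under 0.05, and 0% of all probe sets passed.

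Other genes of phosphate transfer and purine nucleotides moved in both directions between the muscles. Of 61 genes listed 31 were on the array and 30 were tested, each by its brightest probe set. In the mean over ages 9 were higher in EOM, 7 were lower and 14 did not pass, where 23.4% of all 3419 genes tested were higher and 20% lower. The median difference of the list was 0.06 and that of all genes -0.04. The 3 furthest above 0 were Slc25a5, Xdh and Enpp3. Slc25a5, an ADP/ATP carrier of the inner mitochondrial membrane, stood at 1.68 (SE 0.09, adjusted p = 1.62e-13). Xdh, xanthine dehydrogenase, an enzyme of purine breakdown, stood at 1.23 (SE 0.15), and Enpp3, an ectonucleotidase, at 1.06 (SE 0.24). Enpp3 read as low as 17.2 units in EDL at 30 months, under the lowest array floor of 21.4. Its difference is thus measured in part against the floor, and its call was lost in replicates 3 and 4 alone (adjusted p = 0.0761). The 3 furthest below 0 were Prkaa2, a catalytic subunit of the AMP-activated protein kinase (-1.65, SE 0.38, adjusted p = 0.00101), Ppat, the first enzyme committed to purine synthesis (-0.90, SE 0.19), and Gamt, which completes the synthesis of creatine (-0.72, SE 0.16).

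Of the creatine genes, Gatm, which starts creatine synthesis, was higher in EOM (0.97, SE 0.24, adjusted p = 0.00212). In EDL Gatm read from 21.8 to 116 units, so its lowest readings lay within the range of the floors, 21.4 to 34.5. Its call was lost in replicates 3 and 4 alone (adjusted p = 0.125). Gamt and Slc6a8, the creatine transporter (-0.50, SE 0.10, adjusted p = 0.000308), were lower. Ckmt1, the mitochondrial creatine kinase of tissues outside striated muscle, did not pass (0.04, SE 0.25, adjusted p = 0.911). Slc25a4, the ADP/ATP carrier typical of muscle, was lower (-0.33, SE 0.10, adjusted p = 0.0129) where Slc25a5 was higher, and its call was lost with the sign turned after quantile normalisation (0.0097, adjusted p = 0.895). Of 9 genes of purine breakdown and salvage 5 were higher in EOM and 0 lower, where 23.4% of all genes were higher and 20% lower. Aprt, which recovers adenine, was among them at 0.95 (SE 0.08, adjusted p = 2.11e-09). Nucleotide kinases had 2 higher and 1 lower of 5, and adenine nucleotide transport 1 and 2 of 3. The lower kinase, Nme2 (-0.23, adjusted p = 0.0452), passed in only 12 of 34 alternative settings. Purine synthesis and the AMP-activated protein kinase each had 0 higher and 1 lower of 4. None of these parts was tested as a set. At single ages 5, 7 and 5 genes of the whole list were higher and 0, 4 and 4 lower at 6, 18 and 30 months, where 12.3%, 15.2% and 12.2% of all genes were higher and 6.43%, 9.01% and 8.01% lower.

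**Figure D4:**
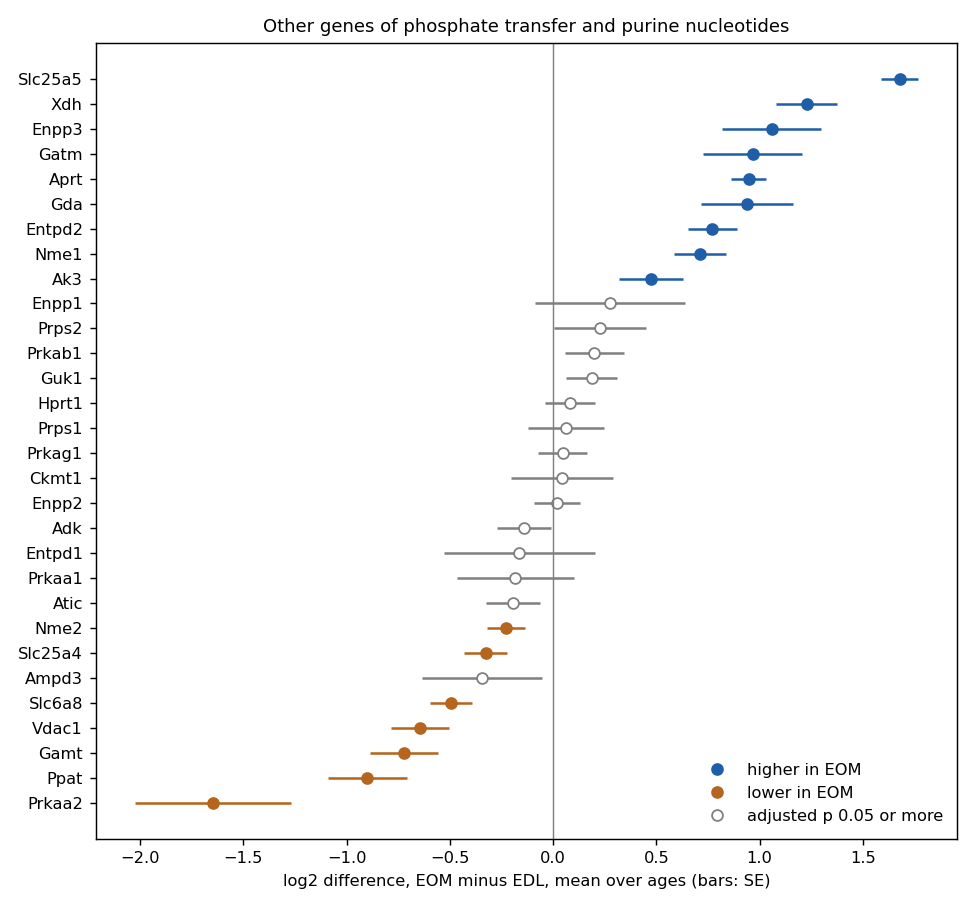
The log2 difference, EOM minus EDL, in the mean over ages (horizontal axis) of the 30 other genes of phosphate transfer and purine nucleotides, with its SE; filled points passed at an adjusted p under 0.05. Slc25a5 at 1.68 and Prkaa2 at -1.65 lie at the ends, and 9 genes are higher and 7 lower.

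Ampd3, the AMP deaminase known from red cells and also made in muscle, was the 1 gene of the list that passed with age, and did so in EDL only among the comparisons run. In EDL it read 168, 217, 485 and 51.2 at 6 months, 90.2, 206, 139 and 26.5 at 18 months and 873, 942, 526 and 502 at 30 months. All 4 old arrays were above all 8 younger ones. It rose by 1.98 from 6 to 30 months (SE 0.50, adjusted p = 0.0372) and by 2.87 from 18 to 30 months (SE 0.50, adjusted p = 0.00142), where 1.4% and 1.46% of all genes rose. The reading of 26.5 at 18 months lies within the range of the array floors, 21.4 to 34.5 units, which limits the second difference. In EOM Ampd3 lay between 143 and 273 at all ages, with differences of -0.26 and -0.20 from 6 months. At 30 months it was lower in EOM than in EDL by -2.07 (SE 0.50, adjusted p = 0.00454), and the muscles' changes from 6 to 30 months did not pass as different (-2.24, SE 0.71, adjusted p = 0.443). Ampd1 showed no such rise in EDL, at 0.19 and -0.08 from 6 to 30 months by its 2 probe sets. The Ampd3 call from 6 to 30 months was kept in 23 of 35 alternative settings. It was lost after quantile normalisation, with arrays centred on their medians, with no filter and with no intensity trend. It was also lost with only the compared groups in the fit and in replicates 3 and 4 alone. Leaving out any of replicates 1, 2 and 4 of EDL at 6 months or 1, 2 and 3 of EDL at 30 months lost it too. The call from 18 to 30 months was kept in 34 of 35, and lost in replicates 3 and 4 alone. Red cell markers in EDL summed to 2338 to 4152 units at 6 months and 2782 to 3439 at 30 months, and neither marker passed between these ages. Of the gland and retina markers tested in EDL, 2 of 6 were higher at 30 months than at 6 and at 18 months, and the others did not pass. Of the listed genes Klk1, a kallikrein of glands, read 24.4 to 407 units at 6 months, 29.0 to 336 at 18 months and 2220 to 6755 at 30 months. From 18 to 30 months 1 extraocular and 1 fat cell marker were also higher. Over the EOM arrays, where Ampd3 lay between 143 and 273, the gland and retina markers summed to 3439 to 34118 units. The part of the cells marked by any of these genes in the Ampd3 values was not tested.

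The genes whose pattern over the 24 arrays was most like that of each member were found by the root mean square difference of log2 values, each gene centred on its own mean, among 3414 genes. For Ckm these were Atp2a1, the calcium pump of fast fibres (0.14), Acta1, skeletal actin (0.14), and Tpm1, a tropomyosin (0.14), beside a median of 0.65 over all genes. For Ckb they were Alpl, Colq and Mmp14 (0.24, 0.25 and 0.27, median 0.69). For Ampd1 they were Ccng1, Ppp1cb and Mybpc1 (0.27, 0.28 and 0.28, median 0.84). For Ak4 they were Map2 and Ndrg4 (0.39 and 0.42) and then Ddc (0.66, median 2.31). Ak4 was held at the floor on all EDL arrays, so over those arrays its pattern is that of the floor. For Ckmt2 they were Vamp3, Cox7b and Ap2m1 (0.16, 0.18 and 0.18), which is little under the gene's own spread of 0.20, so a flat gene is nearly as like it. These are descriptions over arrays that share muscle, age and scaling.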

How the data were processed

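RNA of 24 muscle pools was measured on 24 arrays, and the deposited values are intensities on a linear scale. The authors made them with Affymetrix Microarray Suite 5.0 (MAS 5.0), per the submitters' processing notes; the genes come from the array's annotation, in which 7006 probe sets have 1 symbol. Of the probe sets, 59 controls were left out. Intensities below an array's 25th percentile (21.4 to 34.5 units) were raised to it before log2. Testing required values above the 40th percentile (53.8 to 83.8 units) in 3 or more arrays of any 1 group, and 5741 of 8740 met this. The 6 group means were fitted together in limma 3.58.1 under R 4.3.3 (lmFit on the 24 arrays, eBayes with an intensity trend, 18 residual degrees of freedom). Tests were two-sided, Benjamini-Hochberg adjusted over the 5741 and called at an adjusted p under 0.05. The procedure was tested on simulated data. Tables and plots used Python 3.11.15, pandas 2.3.3, numpy 2.4.6 and matplotlib 3.10.9.

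Tests compare 1 probe set between arrays. Marker intensities are summed over the markers' probe sets within an array, and where a listed gene had several probe sets the brightest was used (for tests, the brightest of those tested). All probe sets of the 5 genes are described, with the 3 genes most like each, and from the pathway list the 3 called genes furthest from 0 in each direction and every gene called with age; the other creatine genes, Aprt and Slc25a4 were chosen after their values were seen. The members and the lists were chosen with earlier results of these data known. Alternatives changed the scaling between arrays, the floor, the filter, the variance prior, array weights, the arrays in the fit, the replicate number as a block, the replicate sets and a call rule of no overlap with a mean ratio above 2, and left out each array in turn. Sequences are from RefSeq, build GRCr8.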

Additional observations from a re-analysis of the deposited data

Results flagged for a closer look

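Among 45 groups of 4 arrays, 2 held an array far from the other 3, where chance gives about 1 in 20 groups. Both were Ckmt2 in EDL at 18 months. For X59736mRNA_at replicate 4 was the lowest, at 5738 units against 6673 to 6827, so that its gap made up 0.859 of the range. For X59736mRNA_g_at replicate 3 was the lowest, at 14053 units against 15259.5 to 15487, with a gap of 0.841 of the range. Both gaps exceed Dixon's critical value for 4 samples at the 95% level. Different arrays stood apart in the 2 probe sets.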

How the results depend on the processing

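Over 36 alternative settings, 421 of 428 counts of called member probe sets stayed within 1.5 times the reported count. Every comparison between ages had a reported count of 0, and 0 against 0 is taken as unchanged, so the figure says little of them. A count can also stay while its probe sets change. After quantile normalisation the mean over ages still held 7, with Ckm lost and Ckmt2 X59736mRNA_at gained. In replicates 3 and 4 only, the count in the mean over ages was 4 in place of 7, and in replicates 1 and 2 only, that at 6 months was 2 in place of 4. For EDL at 30 against 6 months, array weights gave 1 call in place of 0, and leaving out single arrays gave 0 to 1, with 1 only without replicate 3 of EDL at 6 months. With the replicate number as a block the counts were 8 at 30 months, 2 for EDL at 30 against 6 months, 1 for EDL at 30 against 18 months, 8 in the mean over ages, 5 at 6 months and 6 at 18 months. Under it Ckm passed at 6, 18 and 30 months (adjusted p = 0.00622, 0.00302 and 0.021). Ckmt2 in EDL passed from 6 to 30 months in both probe sets (0.006 for X59736mRNA_g_at and 0.0458 for X59736mRNA_at) and from 18 to 30 months in the first of them (0.00899). Arrays of 1 number in different groups shared deviations with correlations of -0.0075 to 0.53 (60 pairs, 53 over 0.1), and 21 of 24 arrays matched best with their own number. This is a hint from the data and not from the design, so the numbers were not used as pairs. After quantile normalisation the sign turned for Ckmt2 X59736mRNA_g_at at 6 months (0.28, adjusted p = 0.0442, in place of -0.0081) and for Slc25a4 (0.0097, adjusted p = 0.895, in place of -0.33), and the cause was not tested. Signal over background limits Ak4 in EDL, which has only a bound. Of the pathway genes named above, Gatm, Enpp3 and Ampd3 in EDL and Prkaa2 in EOM had readings within or below the range of the floors.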
